A study of Mus musculus with 4 samples.

Results

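The genes described here encode the protein core of the major spliceosome and 5 SR proteins, 48 genes among the 47445 gene identifiers measured. They were chosen by name, without use of their values: the 7 proteins of the Sm ring, the 7 of the LSm ring, 3 proteins of the U1 particle, 14 of the U2 particle and its auxiliary factor, 9 of the U5 and U4/U6.U5 particles (the tri-snRNP), 3 of the Prpf19 complex and 5 SR proteins. All 48 were found once in each library. RNA was measured in C57BL/6N mouse embryos of normal morphology at the late 2-cell stage, in 2 libraries from embryos that had received siRNA against Uqcc3 and in 2 control libraries. The Uqcc3 protein helps to assemble mitochondrial complex III, part of the respiratory chain. The siRNA was given at 5 µM and 8 hpi, as the labels abbreviate it, to embryos of mothers aged 8 weeks. By the protocol, controls received a negative-control siRNA in the same way, whereas their treatment label reads "none", so the sources differ on whether controls were injected. The sources used here do not say how many embryos made up a library, nor that libraries came from separate mice or days. The p-values below therefore measure only how far these libraries spread, and that spread may be technical. The endings of the library titles differ between siRNA and control libraries without being explained, and a difference in handling that they may mark cannot be told apart from the treatment.

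The spliceosome removes introns from new transcripts. A ring of Sm proteins is loaded onto the U1, U2, U4 and U5 small nuclear RNAs and an LSm ring binds the end of U6. U1 marks the start of an intron and U2 its branch point, and the tri-snRNP and the Prpf19 complex then form the catalytic centre. SR proteins bind exons and recruit these particles, and several of them limit their own mRNA through exons that send it to decay. In the mouse the embryonic genome becomes broadly active at the 2-cell stage, when transcripts inherited from the oocyte are cleared and new ones must be spliced.

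Levels are FPKM: fragment numbers that the authors divided by transcript length and by the size of the library. Uqcc3 was at 23.7 and 19.8 FPKM in siRNA replicates 1 and 2, against 147.5 and 210.9 FPKM in control replicates 1 and 2. The depth implied by the authors' error bounds, in units of 1e6 fragments, was 11.7 and 11.8 in the siRNA libraries and 16.7 and 18.9 in the controls. siRNA replicate 2 stood apart: 9771 genes reached 1 FPKM there, against 11818 to 12202 in the other libraries. Its log2 values correlated with theirs across genes, which are not independent replicates, at 0.624 to 0.651, while the other 3 libraries correlated with each other at 0.867 to 0.875. Each result is therefore given for both siRNA libraries separately. The 9 markers of the late 2-cell stage summed to 632 and 281 FPKM with siRNA and 1019 and 1314 FPKM in controls, with Gm6763 at 0 in all 4 libraries. Obox6, the highest of them, stood at 285 and 138 FPKM with siRNA, against 600 and 560 FPKM in controls. In siRNA replicate 2, 6 of the 8 tested markers lay below both controls, against 50.5% of all tested genes. The other 2, Usp17lc and Dppa2, lay above both, against 32% of all tested genes. The 10 oocyte transcripts summed to 291 and 505 FPKM with siRNA and 232 and 269 FPKM in controls. They did not move together: in siRNA replicate 2, 6 lay above both controls and 3 below, against 32% and 50.5% of all tested genes. Gdf9 stood there at 177 FPKM, against 44.3 and 69.8 FPKM in controls, and Zp3 at 5.39 FPKM, against 54.6 and 66.4 FPKM. The 10 cumulus and granulosa markers summed to 11.6 and 1.26 FPKM with siRNA and 8.66 and 16.1 FPKM in controls, with Amh and Fshr at 0 throughout. The 8 sperm markers summed to 47.1 and 22.6 FPKM with siRNA and 26.6 and 37.2 FPKM in controls, and the 8 blood markers to 29.5 and 9.17 FPKM and 33.5 and 34.5 FPKM. The part of these differences in the results below was not tested.

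No spliceosome gene passed the test between siRNA embryos and controls, and many members were low in one siRNA library and high in the other. In siRNA replicate 1, 33 of the 47 tested members lay below both controls, against 48.3% of all tested genes. In siRNA replicate 2, 23 members lay above both, against 32% of all genes. Srsf1, which binds exonic enhancers, stood at 12.7 FPKM in siRNA replicate 1 and at 181 FPKM in siRNA replicate 2, on either side of controls at 33.8 and 25.0 FPKM. In 27.7% of members both siRNA libraries were low, no larger a share than the 30% of all genes, among them Snrpc of the U1 particle, Snrnp40 of the U5 particle, Plrg1 of the Prpf19 complex and the SR protein Srsf7. In libraries made from whole embryos, a change in every cell and a change in some of the cells cannot be told apart.

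The test was limma on log2(FPKM + 1) over the 12390 genes that reached 1 FPKM in 2 or more libraries, two-sided, with Benjamini-Hochberg adjustment. Sf3a2, a subunit of the U2 particle, missed the filter at 0.316 FPKM or less in each library, so 47 of the 48 members were tested. None of the 47 members and 0 of all genes passed an adjusted p of 0.05 (0% of all genes in either direction; smallest adjusted p of a member 0.745). At an unadjusted p under 0.05 limma gave 4 members (8.51%), all lower with siRNA, against 5.96% of all tested genes, of which 5.21% were lower and 0.743% higher. In 13 members (27.7%) both siRNA libraries lay below both controls, against 30% of all tested genes, and in 4 members (8.51%) both lay above, against 8.6%. These shares were close to those of all genes. By the mean, 31 members were lower with siRNA and 16 higher, and 64.1% of all tested genes were lower. The count of 13 was 33 (70.2%) without siRNA replicate 2, where the share of all tested genes was 48.3%. It was 21 without control replicate 2, for which no share of all genes is given. The count of 4 at an unadjusted p fell without either control and rose without either siRNA library. The shares of all genes in those fits are not given, so this rise is not a result about the members. An exact permutation test of a single gene with 2 libraries against 2 cannot give a two-sided p below 0.333.

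The members differed between the 2 siRNA libraries. siRNA replicate 1 lay below both controls in 70.2% of members, against 48.3% of all tested genes. siRNA replicate 2 lay above both controls in 48.9% of members, against 32% of all genes, and below both in 18 members (38.3%), against 50.5%. In 37 of 47 members (78.7%) siRNA replicate 2 was higher than siRNA replicate 1, against 46.4% of all tested genes. Measured from the control mean, the median log2 difference of the members was -0.91 for siRNA replicate 1 and 0.21 for the other siRNA library. The medians of all tested genes were -0.30 and -0.57, so the members' offsets from all genes were -0.60 and 0.79. With both libraries together the median of the members was -0.27 and that of all genes -0.39. Between the controls, control replicate 2 minus control replicate 1 had a median of -0.08 over the members and -0.10 over all genes.

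**Figure D1:**
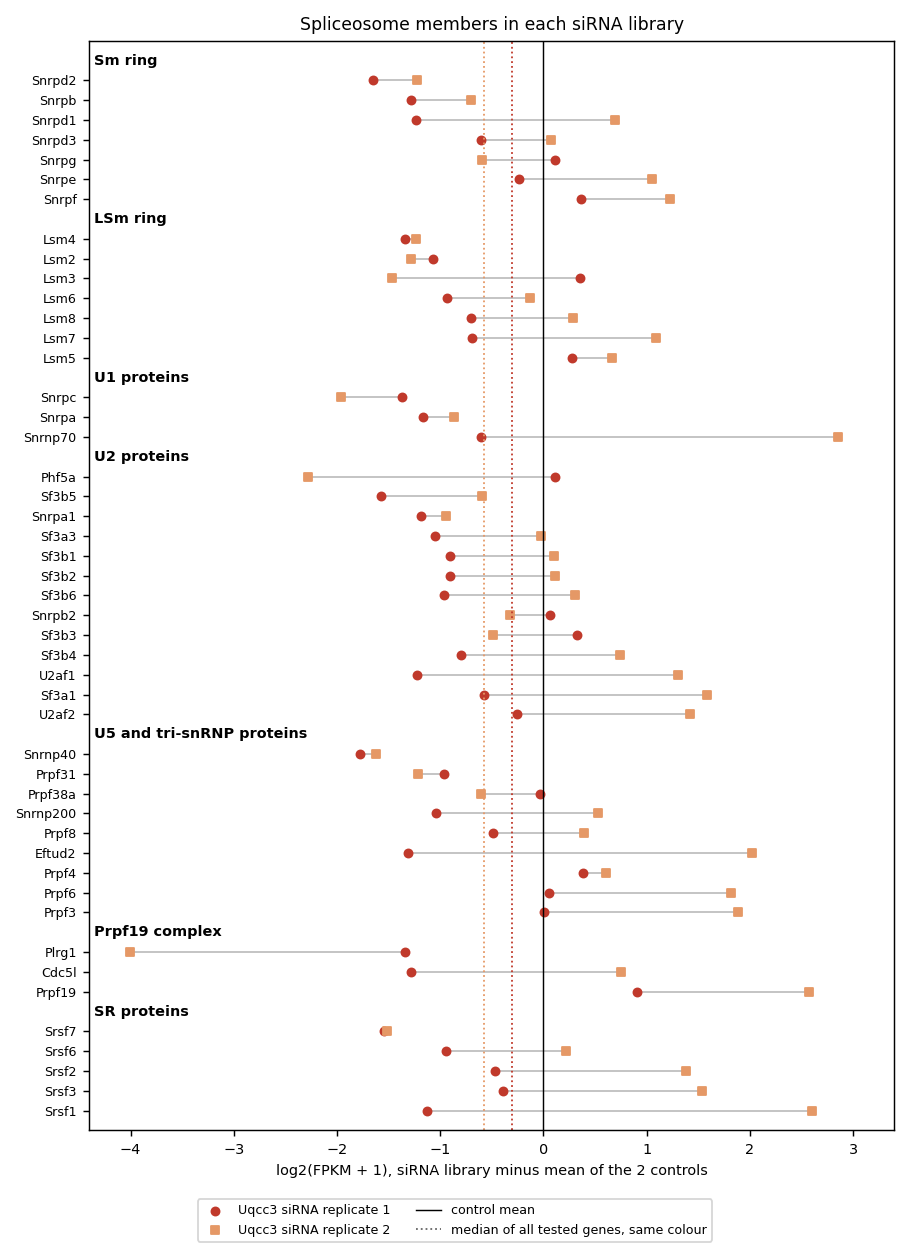
The horizontal axis gives the difference in log2(FPKM + 1) of each siRNA library from the mean of the 2 controls, and each row is 1 of the 47 tested members, grouped by particle. Circles are siRNA replicate 1, squares siRNA replicate 2, the solid line the control mean and the dotted lines the medians of all tested genes; the square lies right of the circle in 37 rows, and Plrg1 reaches -4.01 while Snrnp70 and Srsf1 reach 2.85 and 2.60.

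Promoters are shown for 4 members that mark these patterns: Plrg1 and Srsf7, which were low in both siRNA libraries, and Srsf1 and Srsf2, which were low in the first and high in the second. Each is the 250 bases before the annotated start site, 5′ to 3′ on the gene's strand, from RefSeq on GRCm38.p6. Capitals mark the 3 motifs found in them on either strand, GGGCGG (Sp1), CCAAT (the CCAAT box) and TATAAA (the TATA box), and adjoining or overlapping Sp1 matches are merged. Their positions are chr3:83055288-83055537 on the plus strand for Plrg1, chr17:80207306-80207555 on the minus strand for Srsf7, chr11:88047123-88047372 on the plus strand for Srsf1 and chr11:116853095-116853344 on the minus strand for Srsf2.
Plrg1: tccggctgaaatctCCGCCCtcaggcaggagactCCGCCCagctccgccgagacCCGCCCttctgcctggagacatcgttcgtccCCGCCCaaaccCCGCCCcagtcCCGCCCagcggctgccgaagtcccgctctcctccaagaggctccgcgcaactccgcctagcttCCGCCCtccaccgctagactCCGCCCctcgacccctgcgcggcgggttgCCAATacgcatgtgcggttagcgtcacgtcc
Srsf7: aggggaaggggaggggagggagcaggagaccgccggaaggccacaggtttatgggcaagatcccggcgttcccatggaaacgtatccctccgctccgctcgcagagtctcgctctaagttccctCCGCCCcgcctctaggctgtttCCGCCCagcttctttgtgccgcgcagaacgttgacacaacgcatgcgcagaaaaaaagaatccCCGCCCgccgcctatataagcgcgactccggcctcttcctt
Srsf1: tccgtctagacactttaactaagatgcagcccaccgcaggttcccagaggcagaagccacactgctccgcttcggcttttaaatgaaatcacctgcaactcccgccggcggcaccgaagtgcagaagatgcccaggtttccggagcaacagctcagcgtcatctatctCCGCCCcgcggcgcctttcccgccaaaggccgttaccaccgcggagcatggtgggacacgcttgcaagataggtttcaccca
Srsf2: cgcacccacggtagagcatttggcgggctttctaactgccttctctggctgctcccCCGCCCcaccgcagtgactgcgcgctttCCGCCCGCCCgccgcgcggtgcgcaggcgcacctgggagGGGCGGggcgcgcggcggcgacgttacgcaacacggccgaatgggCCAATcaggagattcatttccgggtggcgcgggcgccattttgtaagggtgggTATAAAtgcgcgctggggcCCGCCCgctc
All 4 windows held GGGCGG, Plrg1 and Srsf2 held CCAAT, and Srsf2 held TATAAA. Of the 39 members matched to a promoter by symbol, 23 (59%) held GGGCGG, against 41.3% of 18567 promoters of the same length. CCAAT was in 16 of the 39 (41%), against 35.4%, and TATAAA in 4 (10.3%), against 11.8%. The ETS motif CCGGAAGT was in 2 (5.13%), against 3.73%, the palindromic NRF1 motif in 1 (2.56%), against 1.01%, and the extended YY1 motif in 0, against 0.28%. Every motif was searched on both strands, and a match is a description of the letters.

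The Sm ring spanned a 50.8-fold range of control means, although its proteins enter the ring in equal number. Snrpe had the highest control mean, at 739 FPKM, and Snrpd3 the lowest, at 14.6 FPKM. Snrpd2, which pairs with Snrpd1 in the ring, stood at 34.4 and 46.5 FPKM with siRNA, against 112 and 108 FPKM in controls. Its log2 fold change was -1.44 (SE 0.62), and both siRNA libraries were lower than both controls. Snrpb stood at 17.6 and 26.9 FPKM with siRNA, against 67.8 and 28.7 FPKM in controls, where siRNA replicate 2 came close to control replicate 2. Snrpf was the member of this ring that was higher in both siRNA libraries, at 202 and 368 FPKM, against 188 and 130 FPKM in controls (log2 fold change 0.80, SE 0.62). Snrpe stood at 623 and 1531 FPKM with siRNA, against 799 and 678 FPKM in controls, so the siRNA libraries lay on either side of the controls. Snrpd1 did likewise, at 87.0 and 335 FPKM with siRNA, against 237 and 180 FPKM in controls. Snrpg was at 400.3 and 245 FPKM with siRNA, against 531 and 258 FPKM in controls, and Snrpd3 at 8.72 and 14.5 FPKM, against 19.4 and 9.65 FPKM. The groups overlapped for Snrpg and Snrpd3.

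For several ring proteins the value depends on how reads were shared with near-identical copies. Such a copy (at least 95% identity over at least 50% of the coding sequence of the principal transcript) was annotated for 15 of the 48 members, among them 5 of the 7 Sm genes, 3 of the 7 LSm genes and none of the 9 U5 and tri-snRNP genes. Snrpf held only 16.1% and 22.6% of the FPKM of gene and copy together in the siRNA libraries and 13.9% and 15.2% in the controls. With its copy Gm13092 it summed to 1252 and 1628 FPKM with siRNA and 1355 and 860 FPKM in controls, and the groups then overlapped. Snrpe and its copy Snrpert summed to 1206 and 2431 FPKM with siRNA and 1685 and 1581 FPKM in controls. Snrpg and its copy Gm8186 summed to 1554 and 966 FPKM with siRNA and 1981 and 1481 FPKM in controls. Lsm7 held 1.48% and 7.42% of its sum with siRNA and 1.80% and 1.49% in controls, so its own value is the least certain of the rings. Values of single genes in this group are therefore uncertain.

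**Figure D2:**
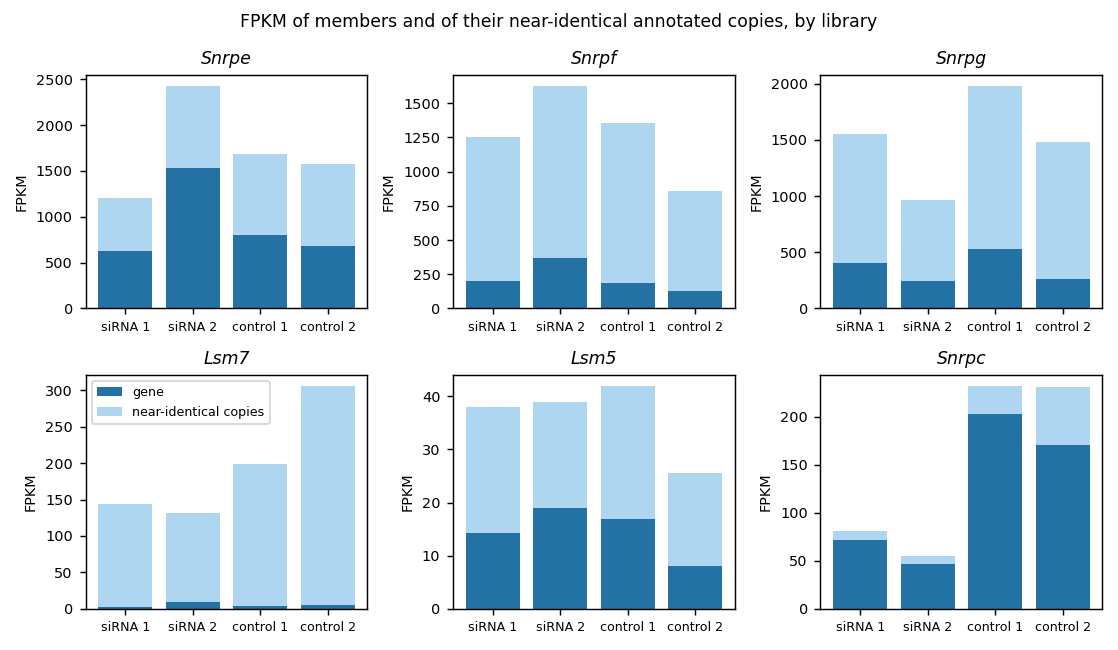
Stacked bars give the FPKM of 6 members (dark) and of their near-identical annotated copies (light) in each of the 4 libraries, with the siRNA libraries on the left of each panel. The copies make up most of the signal for Snrpf, Snrpg, Lsm5 and Lsm7. They make up little of it for Snrpc, whose sum stays lower in both siRNA libraries, at 81.4 and 54.9 FPKM against 232.2 and 231.5 FPKM in controls.

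In the LSm ring, which holds the end of U6, the control means spanned an 87.9-fold range, with Lsm2 at 358 FPKM and Lsm7 at 4.07 FPKM. With its near-identical copies Lsm7 summed to 199 and 306 FPKM in controls, so this range depends on how reads were shared. Lsm2 was low in both siRNA libraries, at 166 and 144 FPKM, against 434 and 282 FPKM in controls (log2 fold change -1.17, SE 0.59). Lsm4 was also low, at 7.28 and 7.90 FPKM with siRNA, against 16.0 and 24.8 FPKM in controls, but with wide error bounds. They implied 7 and 52 fragments with siRNA and 17 and 35 in controls, numbers that its 5 annotated transcripts make uncertain. These were the 2 of 7 LSm genes (28.6%) whose groups did not overlap, close to the 30% of all tested genes that were low in the same way. Lsm6 stood at 63.2 and 111 FPKM with siRNA, against 148 and 99.97 FPKM in controls. Lsm3 went against the common pattern, at 121 FPKM in siRNA replicate 1 and 33.5 FPKM in siRNA replicate 2, against controls at 80.1 and 111 FPKM. Lsm8, the subunit that sets this ring apart from the cytoplasmic LSm ring, stood at 137 and 273 FPKM with siRNA, against 318 and 158 FPKM in controls. Lsm5 stood at 14.3 and 19.0 FPKM with siRNA, against 16.9 and 7.96 FPKM in controls. Lsm7 stood at 2.13 and 9.72 FPKM with siRNA, against 3.57 and 4.57 FPKM in controls.

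Of the 3 U1 proteins, Snrpc and Snrpa (66.7%) were low in both siRNA libraries, against 30% of all tested genes. Snrpc stabilises the pairing of U1 with the start of the intron and lies on chromosome 17 from 27838150 to 27851968 (plus strand, GRCm38, GENCODE M21). It stood at 71.4 and 46.9 FPKM with siRNA, against 203 and 170 FPKM in controls, or 38.3% and 25.1% of the control mean. The mean was 59.1 ± 17.4 FPKM with siRNA and 187 ± 23.2 FPKM in controls (SD, n = 2 each). Its log2 fold change of -1.67 (SE 0.61) had the smallest unadjusted p of the members, 0.0267, and it did not pass over all genes in limma (adjusted p = 0.745). Snrpa, which binds a stem-loop of U1 RNA, stood at 51.0 and 63.4 FPKM with siRNA, against 114 and 118 FPKM in controls (log2 fold change -1.02, SE 0.61). Snrnp70, the other U1-specific protein, stood at 2.21 FPKM in siRNA replicate 1 and 34.2 FPKM in siRNA replicate 2, against 5.70 and 2.55 FPKM in controls. Thus in siRNA replicate 2, 1 of the 3 U1 proteins lay above both controls, against 32% of all tested genes. The other 2 lay below both, against 50.5% of all tested genes.

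The U2 proteins select the branch point, with Sf3b1 and Phf5a forming the pocket that holds its adenosine. The gene of this class with the highest control mean was Phf5a, at 467 FPKM. It lies on chromosome 15 from 81864520 to 81871911 on the minus strand. Phf5a stood at 506 FPKM in siRNA replicate 1 and 95.2 FPKM in siRNA replicate 2, against 476 and 458 FPKM in controls. siRNA replicate 1 was thus above both controls and siRNA replicate 2 was at 20.4% of the control mean. Sf3b1 had the reverse order, at 20.6 and 42.4 FPKM with siRNA, against 40.1 and 38.9 FPKM in controls. Sf3b6, which contacts the branch point through Sf3b1, stood at 99.1 and 240 FPKM with siRNA, against 200 and 189 FPKM in controls.

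Snrpa1, Sf3b5 and Sf3a3, 3 of the 13 tested U2 genes (23.1%), were lower in each siRNA library than in each control, against 30% of all tested genes. Sf3b5, a small subunit of SF3b, stood at 13.2 and 26.9 FPKM with siRNA, against 52.6 and 32.2 FPKM in controls (log2 fold change -1.08, SE 0.75). It has 1 annotated transcript, so its fragments could be read from the error bounds: 604 and 1256 with siRNA and 3488 and 2434 in controls. Snrpa1, which binds U2 RNA with Snrpb2, stood at 64.4 and 76.6 FPKM with siRNA, against 123 and 178 FPKM in controls. Its partner Snrpb2 stood at 48.2 and 36.5 FPKM with siRNA, against 40.5 and 52.3 FPKM in controls, with groups that overlapped. Sf3a3 stood at 18.3 and 38.5 FPKM with siRNA, against 38.7 and 39.6 FPKM in controls, so only siRNA replicate 1 lay clearly apart. The genes of the U2 auxiliary factor, which reads the end of the intron, were low in controls and higher in siRNA replicate 2. U2af1 stood at 0.758 and 9.21 FPKM with siRNA, against 1.89 and 4.88 FPKM in controls. With its near-identical copy Gm10232 it summed to 2.22 and 18.0 FPKM with siRNA and 3.91 and 16.8 FPKM in controls. The sum in siRNA replicate 2 was thus close to that in control replicate 2. U2af2 stood at 0.803 and 4.76 FPKM with siRNA, against 1.08 and 1.22 FPKM in controls. Sf3a1 stood at 1.59 and 10.5 FPKM with siRNA, against 3.39 and 2.39 FPKM in controls. Sf3b2 stood at 2.94 and 6.96 FPKM with siRNA, against 8.32 and 4.87 FPKM in controls. The remaining tested genes, Sf3b3 and Sf3b4, stayed under 4 FPKM in every library. Sf3b3 ranged from 0.0122 to 3.00 FPKM and Sf3b4 from 0.589 to 3.64 FPKM.

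Among the U5 and tri-snRNP genes 2 of 9 were low and 2 were high in both siRNA libraries (22.2% each), against 30% and 8.6% of all tested genes. Snrnp40, a WD-repeat protein of U5, lies on chromosome 4 from 130360132 to 130390026 on the plus strand. It stood at 13.4 and 15.0 FPKM with siRNA, against 45.5 and 51.1 FPKM in controls, or 27.7% and 31.0% of the control mean. The siRNA libraries were close to each other here (14.2 ± 1.14 FPKM with siRNA, 48.3 ± 3.98 FPKM in controls, SD, n = 2 each), with a log2 fold change of -1.70 (SE 0.70). Its unadjusted p was 0.0413 and its limma adjusted p 0.745. Prpf31, which joins U4/U6 to U5, stood at 5.04 and 4.06 FPKM with siRNA, against 5.50 and 20.4 FPKM in controls, and control replicate 1 was close to the siRNA libraries. Prpf6, which also bridges the tri-snRNP, stood at 3.69 and 14.9 FPKM with siRNA, against 3.63 and 3.401 FPKM in controls. Prpf4 of the U4/U6 particle stood at 6.01 and 7.16 FPKM with siRNA, against 4.51 and 4.23 FPKM in controls. siRNA replicate 1 exceeded the controls by little for Prpf6, and the siRNA libraries were close to each other for Prpf4.

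Prpf3, the partner of Prpf4, stood at 17.6 and 67.7 FPKM with siRNA, against 16.7 and 18.5 FPKM in controls, so only siRNA replicate 2 stood out. Prpf38a, needed for activation of the spliceosome, had the highest control mean of the class, 110 FPKM, and stood at 107 and 72.0 FPKM with siRNA, against 113 and 107 FPKM in controls. The large proteins of the catalytic centre had low FPKM. Prpf8, the scaffold of the active site, stood at 1.699 and 3.98 FPKM with siRNA, against 1.91 and 3.93 FPKM in controls. Its error bounds implied 66 and 245 fragments with siRNA and 159 and 395 in controls. Prpf8 has 4 annotated transcripts, so, unlike for Sf3b5, these are not plain fragment numbers. Snrnp200, the helicase that unwinds U4 from U6, stood at 0.853 and 4.50 FPKM with siRNA, against 7.07 and 0.807 FPKM in controls. Eftud2, the GTPase of U5, stood at 0.0502 and 9.58 FPKM with siRNA, against 5.49 and 0.0420 FPKM in controls. For Snrnp200 and Eftud2 the replicates of the same group differed more widely than the group means.

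The Prpf19 complex held the lowest and the highest log2 fold changes of the 47 members. Plrg1, a WD-repeat subunit on chromosome 3 from 83055522 to 83072355 (plus strand), stood at 14.1 and 1.38 FPKM with siRNA, against 36.5 and 38.1 FPKM in controls. These were 37.8% and 3.70% of the control mean, and siRNA replicate 2 minus siRNA replicate 1 was -2.66 on the log2 scale. The log2 fold change was -2.68 (SE 1.03), with an unadjusted p of 0.0327 and a limma adjusted p of 0.745. Prpf19, the ubiquitin ligase of the complex, stood at 1.23 and 6.09 FPKM with siRNA, against 0.420 FPKM in control replicate 1, and was listed at 0 in control replicate 2 (log2 fold change 1.74, SE 0.86). Its error bounds implied 5 and 116 fragments with siRNA and 2 and 0 in controls, numbers that its 8 annotated transcripts make uncertain. The highest log2 fold change of the members thus came from a gene near the floor in controls. Cdc5l, a scaffold of the complex, stood at 6.38 and 29.3 FPKM with siRNA, against 21.3 and 13.5 FPKM in controls, so the siRNA libraries lay on either side of the controls.

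All 5 SR genes lay below both controls in siRNA replicate 1, against 48.3% of all tested genes, and 4 of the 5 lay above both in siRNA replicate 2, against 32%. Srsf7 was the exception: it stood at 64.2 and 65.4 FPKM with siRNA, against 203 and 176 FPKM in controls. This was 33.9% and 34.5% of the control mean (64.8 ± 0.89 FPKM with siRNA, 190 ± 19.6 FPKM in controls, SD, n = 2 each), with a log2 fold change of -1.53 (SE 0.59), an unadjusted p of 0.0324 and a limma adjusted p of 0.745. Srsf7 lies on chromosome 17 from 80200080 to 80207307 on the minus strand. Srsf1 stood at 43.4% and 618% of the control mean, and on log2(FPKM + 1) its gap of 3.73 between siRNA libraries was the widest of the tested members. As a ratio of FPKM its gap was 14.2-fold, less than the 15.5-fold of Snrnp70 and the 191-fold of the low Eftud2. Srsf2, on chromosome 11 from 116849901 to 116853094, stood at 75.7 and 275 FPKM with siRNA, against 107 and 103 FPKM in controls. Srsf3, the smallest of the 5, stood at 23.8 and 93.4 FPKM with siRNA, against 33.5 and 29.7 FPKM in controls. Srsf6 stood at 6.20 and 15.1 FPKM with siRNA, against 12.6 and 13.1 FPKM in controls. The order of the siRNA libraries was thus the same in these 4 genes. Each of the 5 SR genes has at least 1 annotated transcript that is a target of nonsense-mediated decay, and the gene-level values do not separate it from the coding mRNA.

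**Figure D3:**
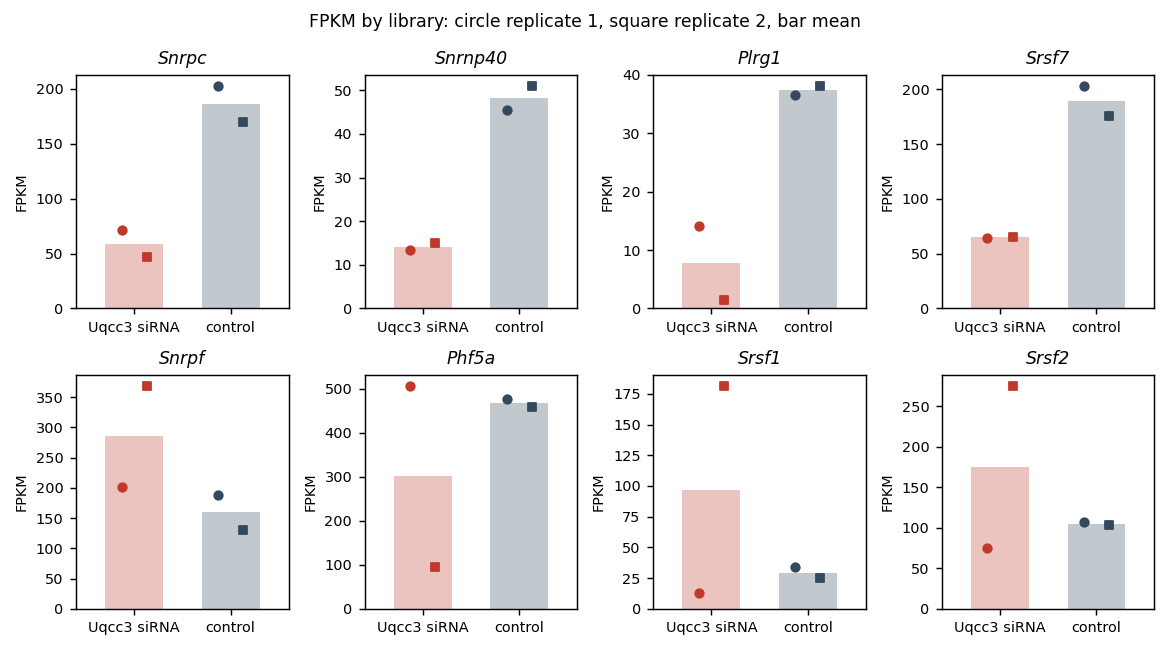
Each panel gives the FPKM of 1 member, with the siRNA libraries left of the controls; circles are replicate 1, squares replicate 2 and bars the mean of the 2 libraries. In the upper row (Snrpc, Snrnp40, Plrg1 and Srsf7) both siRNA libraries lie below both controls, whereas in the lower row Snrpf lies above them and Phf5a, Srsf1 and Srsf2 have 1 siRNA library on each side of the controls.

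When siRNA replicate 1 was left out, so that the lone siRNA library was assumed to vary like the controls, 4 members passed in limma. Phf5a (-2.28, adjusted p = 0.0256), Plrg1 (-4.01, adjusted p = 0.0229) and Snrpc (-1.97, adjusted p = 0.0400) were lower, and Srsf1 (2.60, adjusted p = 0.0324) was higher. In that fit 1477 genes passed, 11.9% of all tested genes, against 4 of 47 members. Without siRNA replicate 2, no member passed in limma.

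Compared by particle, every class had a median below that of all genes in siRNA replicate 1, and every class except the U1 proteins had a median above it in siRNA replicate 2. The offsets from all genes, in siRNA replicates 1 and 2, were -0.30 and 0.64 for the Sm ring and -0.40 and 0.45 for the LSm ring. They were -0.87 and -0.29 for the U1 proteins and -0.60 and 0.67 for the U2 proteins. The U5 and tri-snRNP proteins had -0.18 and 1.10, the Prpf19 complex -0.98 and 1.32, and the SR proteins -0.64 and 1.95. With both libraries the class medians were -0.27, -0.53, -1.02, -0.33, -0.05, -0.27 and 0.45 in the same order of classes, and each except that of the U1 proteins changed sign or moved by over 1.5 times when a siRNA library was left out. The median of the 3 U1 proteins rests on Snrpa and Snrpc, both of which have near-identical copies.

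Transcript length moved with siRNA replicate 2. Across all 12352 tested genes with an annotated length, Spearman's rho of length with the log2 difference of siRNA replicate 2 from the controls was 0.33, and 0.03 for siRNA replicate 1. Across the 47 members it was 0.23 and 0.09. These are descriptions across genes that share the same libraries. The median of the longest annotated transcript was 1055 bases for the Sm ring, 1586 for the LSm ring and 3527 for the SR genes, against 2681 for all tested genes. Members with longer coding sequences had lower levels (rho -0.68 with the control mean over 47 genes, against -0.25 over 9939 tested genes with a coding sequence), so the small ring proteins had most of the FPKM and Prpf8 and Snrnp200 little. The part of length in the class differences was not tested.

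The gap between the siRNA libraries was also seen in other splicing genes, but not in every list. Of 113 tested genes in 7 lists (116 listed), 0 passed in limma, with 1 lower and 1 higher at an unadjusted p under 0.05. siRNA replicate 2 was higher than siRNA replicate 1 in 90 of the 113 (79.6%), against 46.4% of all tested genes. By list, this held for 10 of 12 other SR and SR-like genes, 8 of 9 helicases and 38 of 45 other spliceosome factors, but for 3 of 7 SR and related kinases and 7 of 13 genes of the SMN complex. The median of siRNA replicate 2 minus siRNA replicate 1 was -0.02 over the kinases and 0.28 over the SMN genes on the log2 scale, against -0.14 over all tested genes. Both siRNA libraries were under both controls in 31 (27.4%) and over both in 7 (6.19%), against 30% and 8.6% of all genes. Srsf4, another SR protein, was listed near 0 in both controls and stood at 1.25 and 48.6 FPKM with siRNA (log2 fold change 3.402, SE 1.43). Srsf11 stood at 66.7 and 27.2 FPKM with siRNA, against 122 and 102 FPKM in controls. Among the SR and related kinases, Clk4 stood at 31.9 and 4.10 FPKM with siRNA, against 52.8 and 62.2 FPKM in controls, and Srpk1 at 113 and 53.0 FPKM, against 193 and 122 FPKM. Srsf11, Clk4 and Srpk1 were lower than the controls in each siRNA library.

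The SMN complex and its partners load Sm proteins onto small nuclear RNAs, and 4 of the 13 tested genes were under both controls in each siRNA library, a share close to the 30% of all tested genes. Clns1a, which holds Sm proteins before loading, stood at 59.4 and 55.8 FPKM with siRNA, against 182 and 123 FPKM in controls. Wdr77, which acts with the Sm-modifying methyltransferase Prmt5, stood at 12.4 and 35.2 FPKM with siRNA, against 68.1 and 48.1 FPKM in controls. Of the helicases, Ddx39b, which acts before U2 binds, stood at 2.07 and 2.26 FPKM with siRNA, against 12.4 and 13.2 FPKM in controls, and Ddx41 at 3.88 and 3.28 FPKM, against 7.78 and 8.69 FPKM. Of 45 other spliceosome factors, 15 were under both controls in each siRNA library and 2 over them, against 30% and 8.6% of all tested genes. Ppil1, a prolyl isomerase of the active spliceosome, stood at 4.80 and 12.2 FPKM with siRNA, against 37.5 and 31.4 FPKM in controls (log2 fold change -2.02, SE 0.82). Txnl4a of the U5 particle stood at 51.6 and 14.4 FPKM with siRNA, against 96.4 and 82.1 FPKM in controls.

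**Figure D4:**
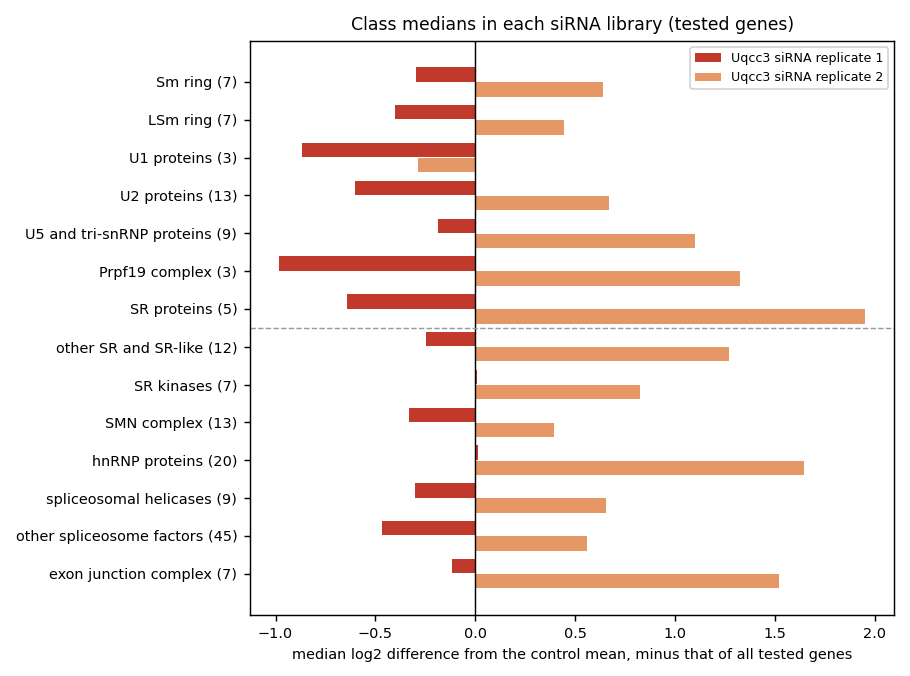
Bars give the median difference in log2(FPKM + 1) from the control mean over the tested genes of each list (number in brackets), minus the median of all tested genes, for siRNA replicate 1 (dark) and siRNA replicate 2 (light). The 7 classes of members are above the dashed line and the lists of other splicing genes below it; the SR proteins have the largest gap among the classes, -0.64 and 1.95.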

How the data were processed

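Per the file headers, the authors deposited 1 table per library with FPKM, a lower and an upper bound and a status for each gene. Reads came from oligo(dT)-primed full-length amplification, per the labels' protocols. Per the submitters' processing notes, the build was mm10, and the tools included Cuffdiff 2.2.1, Cufflinks 2.2.1, STAR 2.7.3a, Trim Galore 0.6.5 and SAMtools 1.7. No source used here names the annotation release. The 47511 rows of each table were summed by gene identifier. Genes with a failed estimate were left out of the tests. Groups follow the treatment label, and replicates were numbered in accession order. The members, lists and tests were chosen with earlier results of these data known.

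Tests used limma 3.58.1 in R 4.3.3, with a trend on abundance and log2(FPKM + 1) as input, over genes at 1 FPKM or more in 2 libraries, which understates fold changes of low genes. The fit was tested on simulated data with known changes, where recovery was required only at a spread smaller than that of these data. The power at the real spread is thus not shown. Uqcc3 itself, at 12.1% of the control mean with siRNA, did not pass in limma (adjusted p = 0.745). Depth was derived from the bounds of genes with 1 transcript, taking the upper bound as 2 errors above the value; it reflects counting error alone, as copies made in amplification are counted like molecules. Lengths, loci and copies come from GENCODE M21, which matched 99.1% of identifiers. In 12 members an exon overlaps a gene on the opposite strand, and reads there cannot be told apart, as the use of strand is not stated. These members are Snrpd3, Snrpf, Snrpa, Sf3a2, Sf3b2, Sf3b3, Sf3b4, Prpf31, Eftud2, Cdc5l, Srsf1 and Srsf2. All members may be named; full values follow the smallest p in each class, the widest gaps between siRNA libraries and the highest levels, and from each other list the 2 smallest p. Alternatives were another pseudocount, 2 filters, 3 scalings, no trend, the largest row, leaving out each library, and, added after seeing the data, removal of a length trend and handling of copies.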

Additional observations from a re-analysis of the deposited data

How the results depend on the processing

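The number of genes passing was 0 in limma under every planned and added alternative except without siRNA replicate 1, where it was 1477, and the leave-one-out counts ranged from 0 to 1477; for the members this was 0 to 4. Members at an unadjusted p under 0.05 numbered 4, and 0 after TPM, median-of-ratios or quantile scaling, 1 without the abundance trend, 2 with the length trend removed and 0 to 17 when 1 library was left out. Members under both controls in each siRNA library numbered 13, and 14 to 33 when 1 library was left out. The 33 came without siRNA replicate 2, where 48.3% of all tested genes lay under both controls. Members above numbered 4, and 2 with the filter at 5 FPKM and 8 with median-of-ratios scaling. There were 9 with quantile normalization or the length trend removed, and 5 to 23 when 1 library was left out. The 23 came without siRNA replicate 1, where 32% of all tested genes lay above both controls. For the other counts of members under these alternatives, the shares of all genes are not given. Changes in those counts are therefore not results about the members. The median of all genes was -0.39, and -0.07, -0.06 and 0.01 with TPM, median-of-ratios and quantile scaling, and class medians moved with it. The LSm median of -0.53 was -0.10, -0.11 and -0.047 under these scalings and -0.057 with the length trend removed. The Sm median of -0.27 was 0.16, 0.15 and 0.34 under the same scalings, 0.66 with the length trend removed and -0.35 with copies summed. The U1 median of -1.02 was -0.59, -0.59 and -0.53, -0.39 with the length trend removed, and 1.12 (offset 1.51) without members that have copies, which leaves Snrnp70 alone. The SR offset of 0.84 was 0.96, 0.93 and 0.98 under the scalings, 0.69 with the length trend removed, and -0.64 without siRNA replicate 2. No paired analysis was possible because the labels carry no replicate numbers that pair the libraries.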

Other observations

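The hnRNP proteins, which bind nascent RNA and often act against SR proteins in exon choice, showed the gap between the siRNA libraries in most of their genes. Of 20 tested genes 17 were higher in siRNA replicate 2 than in siRNA replicate 1, and 13 lay above both controls in siRNA replicate 2, against 46.4% and 32% of all tested genes. Their offsets from all genes were 0.01 in siRNA replicate 1 and 1.65 in siRNA replicate 2. Hnrnpm stood at 10.8 and 104 FPKM with siRNA, against 14.4 and 12.9 FPKM in controls. Hnrnpk was low in both siRNA libraries, at 71.0 and 115 FPKM, against 178 and 155 FPKM in controls. None of the 20 passed in limma, and the unadjusted p was under 0.05 for 0.

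The exon junction complex, left on mRNA after splicing, had 7 tested genes, of which all 7 were higher in siRNA replicate 2 than in siRNA replicate 1, against 46.4% of all tested genes. Magohb stood at 33.6 and 42.8 FPKM with siRNA, against 22.5 and 16.1 FPKM in controls, and was the gene of this list with both siRNA libraries above both controls. Rbm8a stood at 208 and 342 FPKM with siRNA, against 389 and 369 FPKM in controls. None of the 7 passed in limma, and the unadjusted p was under 0.05 for 0.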
